A study of Zea mays with 18 samples.

Results

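*ASN3* (Zm00001eb013430), *HUP26* (Zm00001eb406490), *bZIP100* (Zm00001eb373300) and *GRF1* (Zm00001eb080570) are maize genes whose promoters were tested with ZmNF-YA1 in protoplasts and assigned to its activated targets. They are 4 of the 36321 genes of the expression table and were taken by their IDs. All 4 were among the 22572 genes tested, those with an FPKM (mapped fragments scaled to transcript length and library total) of at least 1 in at least 3 libraries. The candidates of the promoter assay were picked from genes differentially expressed in these same libraries. Their heat responses and genotype differences are therefore no independent evidence for the direction in which they were chosen.

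NF-Y is a trimeric transcription factor, and its NF-YA subunit recognizes the CCAAT box in promoters. Asparagine synthetase, the product of *ASN3*, transfers amide nitrogen from glutamine to aspartate, and asparagine serves plants as a form of stored and transported nitrogen. HUP proteins were named in *Arabidopsis* for genes induced by low oxygen, and their biochemical function is not known. Basic leucine zipper (bZIP) proteins are transcription factors, many of which act in hormone and stress signalling. General regulatory factors (GRF) are adaptor proteins that bind phosphorylated partners.

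RNA-seq measured leaves of the inbred line W22 and of *nf-ya1*, a homozygous mutant of W22 background in which a *Mutator* transposon sits in *ZmNF-YA1* (Zm00001eb005690). Only 1 mutant allele of the gene, an insertion from the UniformMu collection, was used. The methods do not say whether the line holds other insertions. Each genotype was sampled before treatment (0 h), during mild heat stress (1 h of treatment at 39 °C) and in recovery from it (R2h, 2 h), with 3 libraries per group and 18 in all. The times are those of the sample titles. The treatment text deposited with the samples speaks of 6 h of heat and 2 d of recovery, times that the methods give for an assay at a higher temperature. The methods also describe a longer course at 39 °C with sampling at R2h, for qRT-PCR, and do not say whether the R2h plants of RNA-seq came from it. The 3 libraries of a group are biological replicates by the methods.

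The methods describe the mutant as lacking *ZmNF-YA1* transcripts. By qRT-PCR the paper reports a lower level in the mutant than in W22, before and after heat. In the deposited table *ZmNF-YA1* was present under both labels. FPKM are given per gene and do not show whether its transcripts span the insertion. The FPKM of *ZmNF-YA1* was 23.12, 22.79 and 26.55 in W22 at 0 h. Under the *nf-ya1* label it was 13.01, 12.6 and 21.15, lower and without overlap. At 1 h it was 49.63, 43.66 and 39.09 in W22 and 43.15, 36.09 and 27.03 under the *nf-ya1* label, so the labels overlapped at that time. The 9 libraries are therefore called the libraries labelled *nf-ya1*, and every genotype difference is a difference between labels. Over genes, which are no independent replicates, libraries of a W22 group correlated at 0.978 to 0.990, and the unheated ones labelled *nf-ya1* at 0.913 to 0.937. The lowest correlation within a group labelled *nf-ya1* was 0.923 at 1 h and 0.946 at R2h. FPKM divide each library by its total. Over all tested genes the median log2 fold change was −0.51 for W22 1 h/0 h and −0.92 for 1 h/0 h in the libraries labelled *nf-ya1*, and median-ratio scaling brought these medians to −0.03 and −0.06.

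*ASN3* was the gene with the widest range of the 4. Unheated W22 leaves had an FPKM of 17.76, 20.19 and 6.8, heated ones 426.25, 564.42 and 1287.91, and recovered ones 86.57, 275.76 and 224.11. Under the *nf-ya1* label it was 1.6, 0.84 and 0.28 without heat, 13.5, 17.09 and 19.44 under heat, and 190.35, 65.58 and 118.59 after recovery. W22 was highest at 1 h, whereas the other label was highest at R2h, and no library of a group overlapped the next time point of the same label. RefSeq lists a gene with the synonym asn3 on chromosome 1 from 44909165 to 44912606 of Zm-B73-REFERENCE-NAM-5.0, matched by name since the table's IDs are not in that annotation.

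*HUP26* reached the highest FPKM of the 4. It was 142.17, 145.62 and 101.66 in unheated W22, 3753.84, 3267.42 and 3602.57 under heat, and 123.75, 387.03 and 358.96 after recovery. The *nf-ya1* label gave 15.3, 11.7 and 33.03 FPKM unheated, 1857.25, 1821.09 and 2165.17 heated, and 213.95, 120.99 and 143.1 recovered. Both labels had their maximum at 1 h. Within W22 the R2h libraries overlapped those at 0 h, and under the *nf-ya1* label they lay above them.

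*bZIP100* was the gene with the lowest FPKM of the 4 in most groups. W22 had 11.97, 12.99 and 10.51 FPKM before heat, 32.04, 34.92 and 34.47 under heat, and 5.04, 8.26 and 7.47 after recovery. Libraries labelled *nf-ya1* had 5.36, 5.19 and 8.97 before heat, 9.07, 13.66 and 18.76 under heat, and 7.59, 8.72 and 8.18 after recovery. The W22 libraries at 1 h stood above all others. After recovery W22 lay below its own 0 h level, while the libraries labelled *nf-ya1* overlapped theirs.

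*GRF1* ran against the other members. Its FPKM in W22 was 246.06, 262.3 and 253.19 without heat, 101.25, 92.82 and 75.39 with heat, and 178.32, 179.2 and 173.13 in recovery. Under the *nf-ya1* label it was 245.31, 156.75 and 151.19 without heat, 57.36, 68.88 and 89.64 with heat, and 144.77, 114.38 and 126.61 in recovery. Under both labels the FPKM was lowest at 1 h and stayed below the 0 h libraries at R2h. RefSeq has 3 entries that carry the name grf1, so no location is given.

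**Figure D1:**
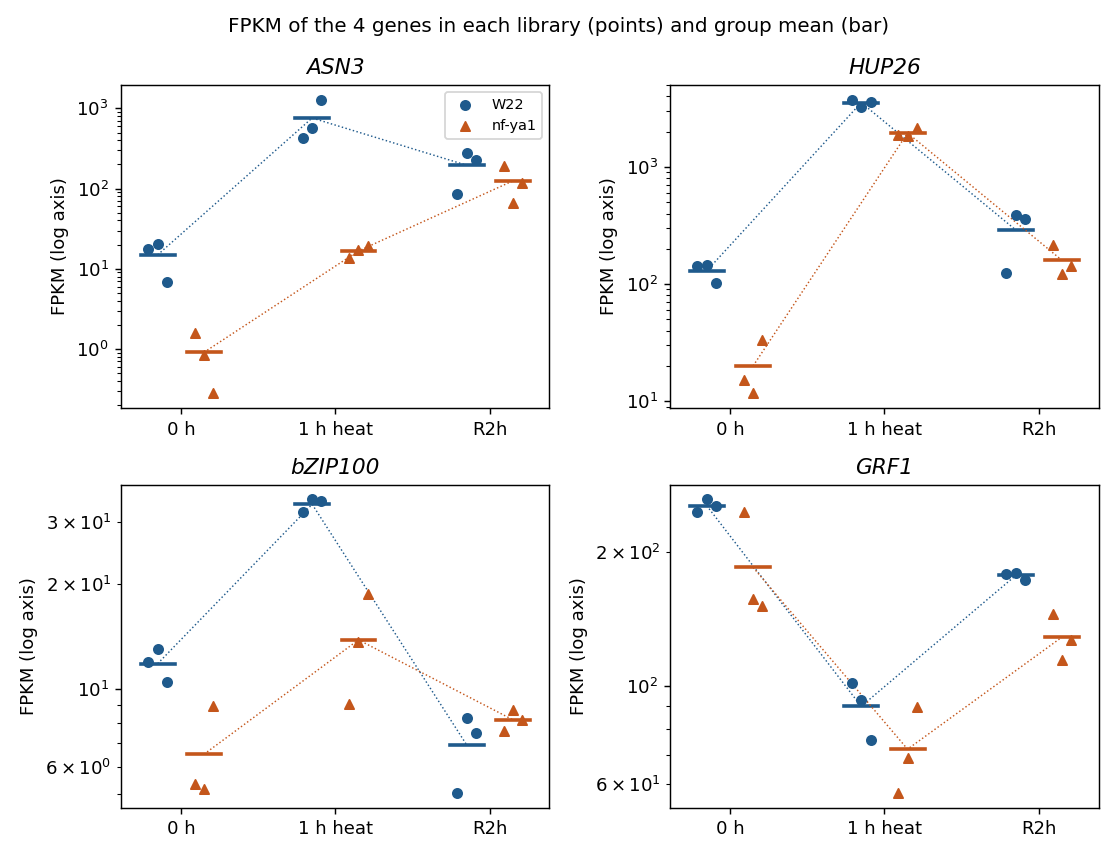
FPKM (log axis) of *ASN3*, *HUP26*, *bZIP100* and *GRF1* in each of the 18 libraries, by time point, with circles for W22, triangles for the libraries labelled *nf-ya1* and bars for group means of 3 libraries. *ASN3* peaked at 1 h in W22 (mean 760) and at R2h under the *nf-ya1* label (mean 125), and *GRF1* was lowest at 1 h under both labels.

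The order of the 6 groups by mean FPKM differed from gene to gene. For *ASN3* it ran from *nf-ya1* at 0 h (0.907 ± 0.663, SD, n = 3) over W22 at 0 h (14.9 ± 7.13), *nf-ya1* at 1 h (16.7 ± 2.99), *nf-ya1* at R2h (125 ± 62.6) and W22 at R2h (195 ± 97.8) to W22 at 1 h (760 ± 463). Within this order, unheated W22 overlapped *nf-ya1* at 1 h, and the R2h groups overlapped each other. On FPKM as deposited, heated leaves labelled *nf-ya1* thus had an *ASN3* level that overlapped unheated W22. After median-ratio scaling these groups did not overlap, at 20.7, 28.1 and 35.2 against 15.2, 18.6 and 6.23. As percentiles of the tested genes of each library they did overlap, at 76.4 to 83.4 against 53.8 to 77.3.

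For *HUP26* the lowest group was again that of *nf-ya1* at 0 h (20.01 ± 11.4), and the highest were the 1 h groups, which did not overlap (1948 ± 189 for *nf-ya1* and 3541 ± 249 for W22). Unheated W22 (130 ± 24.4) and both R2h groups (159 ± 48.6 for *nf-ya1* and 290 ± 145 for W22) overlapped in a chain between them. For *bZIP100* the 3 lowest groups, *nf-ya1* at 0 h (6.51 ± 2.14), W22 at R2h (6.92 ± 1.68) and *nf-ya1* at R2h (8.16 ± 0.565), overlapped. Unheated W22 (11.8 ± 1.25) overlapped *nf-ya1* at 1 h (13.8 ± 4.85), and W22 at 1 h (33.8 ± 1.55) stood alone. After median-ratio scaling unheated W22 was at 10.2, 12.0 and 9.64 and *nf-ya1* at 1 h at 13.9, 22.4 and 34.0, without overlap. For *GRF1*, on FPKM as deposited, both 1 h groups overlapped at the bottom (72.0 ± 16.4 for *nf-ya1* and 89.8 ± 13.2 for W22), and unheated W22 (254 ± 8.14) was highest.

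The heat responses compare 1 h with 0 h within a label. All 4 members passed the test in W22 (3 higher and 1 lower), where 26.5% of all tested genes did (5.79% higher and 20.7% lower). A gene passed if limma on log2(FPKM + 1), with Benjamini-Hochberg adjustment over all tested genes, gave an adjusted p not above 0.01 together with a log2 fold change of 1 or more in size, and this test gave all adjusted p. The log2(FPKM + 1) scale understates changes at low FPKM. None of the 4 overlapped between the time points, nor did 72.4% of all genes. The median log2 fold change of the members was 3.11, and that of all tested genes was −0.51.

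*ASN3* rose most in W22, by 5.54 on the log2 scale (SE 0.52, adjusted p 4.45e-07). Only 31 tested genes had a larger one, and the mean FPKM at 1 h was 50.9 times that at 0 h. *HUP26* rose by 4.77 (SE 0.39, adjusted p 1.15e-07), 27.3 times on means. *bZIP100* rose by 1.44 (SE 0.23, adjusted p 6.87e-05), 2.86 times on means. These 3 genes rose in W22 while the median of all genes was below 0, and their rises relative to that median were 6.05, 5.29 and 1.96.

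*GRF1* was lower in heated W22, at −1.50 on the log2 scale (SE 0.19, adjusted p 7.09e-06), to 35.4% of its mean FPKM at 0 h. This fall depended on how the libraries were scaled. It was −0.99 relative to the median of all genes. With median-ratio scaling it was −0.78 (adjusted p 0.0128) and no longer passed the test, whereas with quantile normalization it was −1.34 (adjusted p 3.97e-05).

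In the libraries labelled *nf-ya1*, 3 of the 4 members passed the test for 1 h/0 h (2 higher and 1 lower), against 51.3% of all tested genes (7.62% higher and 43.7% lower). Again none of the 4 overlapped between 0 h and 1 h, nor did 72.9% of all genes. The median log2 fold change of the members was 2.11 here. *HUP26* rose by 6.66 (SE 0.39, adjusted p 1.35e-09), 97.3 times on means. *ASN3* rose by 3.26 (SE 0.52, adjusted p 3.63e-05), 18.4 times on means, from an FPKM of at most 1.6. The *HUP26* change was the larger of the pair here and the smaller in W22.

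*bZIP100* was at 0.96 under this label (SE 0.23, adjusted p 0.00123) and missed the fold change threshold. It passed with a pseudocount of 0.1 (1.06), with median-ratio scaling (2.02) and with quantile normalization (1.92). It also passed without replicate 3 of *nf-ya1* at 0 h (1.19) and without replicate 1 of *nf-ya1* at 1 h (1.22). In a fit of only the groups compared, *bZIP100* missed the adjusted p threshold as well (0.96, SE 0.32, adjusted p 0.0344). *GRF1* fell by 1.33 (SE 0.19, adjusted p 9.34e-06), and with median-ratio scaling this became −0.18 (adjusted p 0.537). Scaled in that way, *GRF1* was 190, 119 and 104 at 0 h and 88.1, 113 and 162 at 1 h, so the groups overlapped.

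Median-ratio scaling also changed the background, to 11% higher and 6.77% lower for W22 1 h/0 h and to 15.5% higher and 11% lower for 1 h/0 h labelled *nf-ya1*. Quantile normalization gave 9.01% higher and 7.42% lower in W22 and 13.7% higher and 13.1% lower under the *nf-ya1* label. *ASN3* and *HUP26* rose under both labels in every scaling tried. Their smallest log2 fold changes over both labels and these scalings were 3.26 and 4.77.

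**Figure D2:**
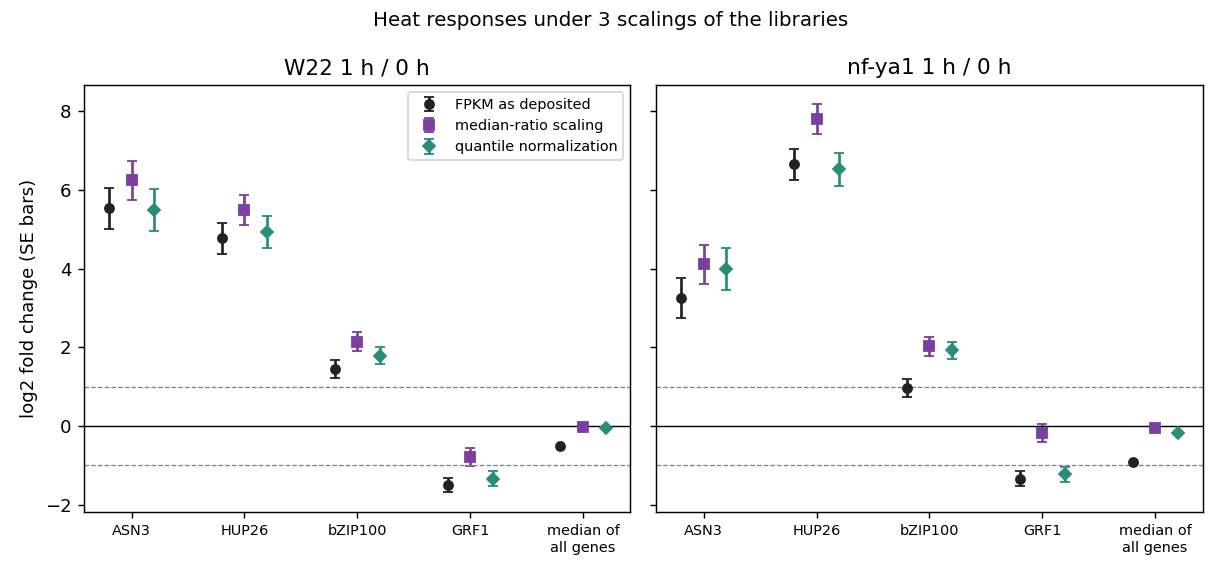
log2 fold changes of 1 h/0 h (y axis, bars are SE from limma) of the 4 genes and the median of all tested genes, on FPKM as deposited (circles), after median-ratio scaling (squares) and after quantile normalization (diamonds), with W22 on the left and the libraries labelled *nf-ya1* on the right. *GRF1* lay at −1.50 and −1.33 as deposited and at −0.78 and −0.18 after median-ratio scaling, while *ASN3*, *HUP26* and *bZIP100* lay above 0 in every case.

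The rank of a gene within its own library does not depend on a scale factor. *ASN3* lay between the 53.8th and 77.3th percentile of the tested genes in unheated W22 and between the 4.49th and 17.3th in the unheated libraries labelled *nf-ya1*. At 1 h it lay at 98.8 to 99.6 in W22 and at 76.4 to 83.4 under the other label. At R2h the labels overlapped, at 94.5 to 98.4 and 92.1 to 97.5. *ASN3* was thus a middling transcript in unheated W22, a rare transcript in unheated *nf-ya1*, and among the abundant ones under both labels at R2h.

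*HUP26* was already at the 95.5th to 96.5th percentile in unheated W22, and at the 60.9th to 82.6th in the unheated libraries labelled *nf-ya1*. Under heat it was at 99.9 in W22 and at 99.6 to 99.7 under the other label. *bZIP100* moved from 64.3 to 68.8 at 0 h to 88.5 to 88.8 at 1 h in W22. Under the *nf-ya1* label it moved from 39.8 to 49.4 at 0 h to 68.9 to 83.0 at 1 h. *GRF1* kept a high rank throughout, from 98.0 to 98.1 at 0 h to 94.3 to 95.8 at 1 h in W22, and from 97.1 to 98.2 to 92.8 to 95.3 under the *nf-ya1* label.

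**Figure D3:**
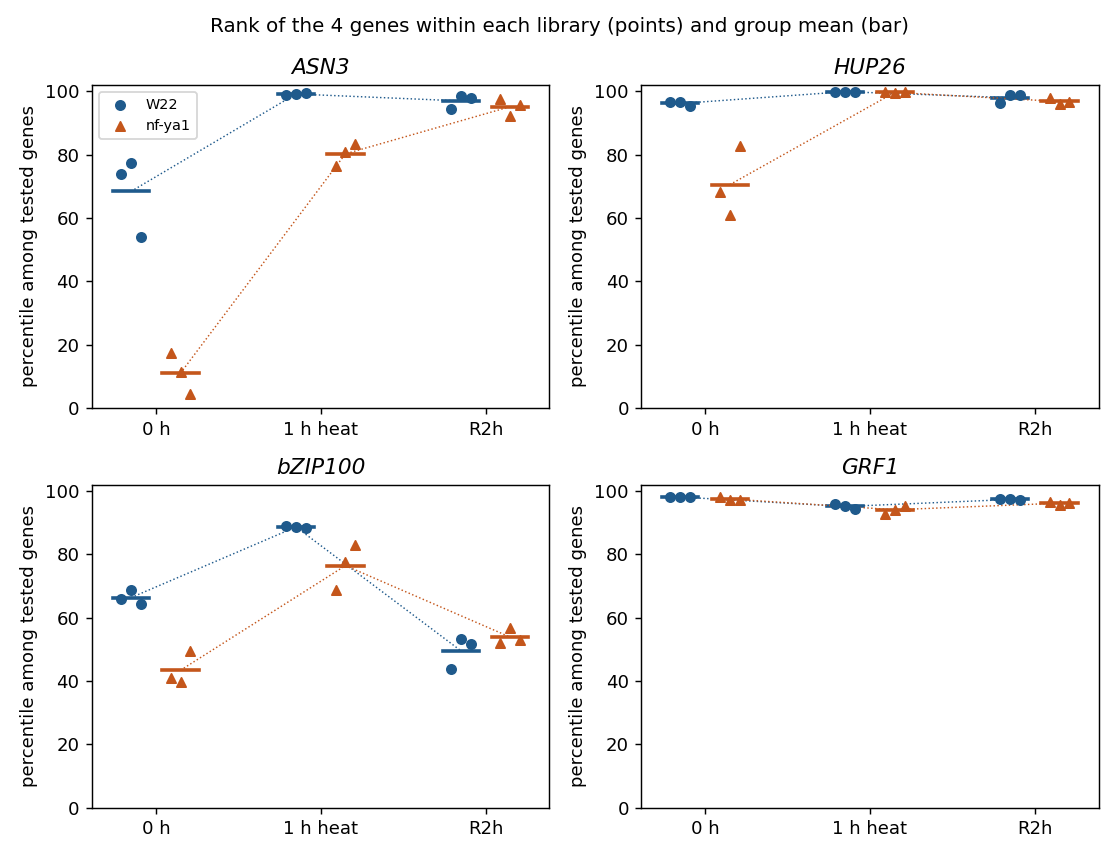
Percentile of the 4 genes among the 22572 tested genes of the same library (y axis, 0 to 100), by time point, with circles for W22, triangles for the libraries labelled *nf-ya1* and bars for group means of 3 libraries. *ASN3* lay below the 18th percentile in unheated *nf-ya1* and above the 92nd at R2h, and *GRF1* lay above the 92nd in every library.

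Recovery was examined by comparing R2h with 1 h. In W22, 3 of the 4 members were lower at R2h and none passed as higher, where 36.4% of all tested genes passed (30.7% higher and 5.73% lower). Under the *nf-ya1* label 1 member was higher and 1 lower, where 44.9% of all genes passed (36.6% higher and 8.2% lower). The R2h libraries of all 4 members lay apart from those at 1 h under both labels, as did 78.1% of all genes in W22 and 72.5% under the *nf-ya1* label. The members' median log2 fold changes were −2.05 and 0.10. With median-ratio scaling these backgrounds became 7.97% higher and 12.5% lower in W22 and 10.2% higher and 16.2% lower under the *nf-ya1* label. Quantile normalization gave 9.14% higher and 10% lower in W22, and 13.6% higher and 13.6% lower under the *nf-ya1* label.

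*HUP26* fell by 3.77 on the log2 scale in W22 (SE 0.39, adjusted p 7.7e-07) and fell by 3.64 under the *nf-ya1* label (SE 0.39, adjusted p 7.26e-07). The mean FPKM was 12.2 times lower at R2h in each. The difference between these changes was 0.13, with a 95% interval from −1.06 to 1.31 (adjusted p 0.892). The interval leaves room for a difference of more than 1 in either direction.

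From 1 h to R2h *ASN3* fell by 1.94 in W22 (SE 0.52, adjusted p 0.00377), whereas under the *nf-ya1* label it rose by 2.72 (SE 0.52, adjusted p 0.000226), which was 7.49 times on means. The W22 fall did not pass in several settings. It was −1.48 without replicate 3 of W22 at 1 h (adjusted p 0.0256) and −1.44 without replicate 1 of W22 at R2h (adjusted p 0.0258). The difference between the labels in this change was 4.66 (SE 0.73, 95% interval 3.10 to 6.23, adjusted p 0.000534), and it passed in every alternative and with any library left out. Only 6 tested genes had a larger difference.

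*bZIP100* fell by 2.16 from 1 h to R2h in W22 (SE 0.23, adjusted p 8.86e-07). Under the *nf-ya1* label it was at −0.64 (SE 0.23, adjusted p 0.0192), which did not pass. The difference was 1.52 (SE 0.32, 95% interval 0.83 to 2.20, adjusted p 0.00397). Leaving out replicate 2 or replicate 3 of W22 at 1 h, replicate 1 of W22 at R2h or replicate 3 of *nf-ya1* at R2h ended this call, with adjusted p of 0.0112, 0.0108, 0.0116 and 0.0109. With median-ratio scaling *bZIP100* fell under the *nf-ya1* label as well (−1.62, adjusted p 3.4e-05).

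*GRF1* was at 0.98 for R2h/1 h in W22 (SE 0.19, adjusted p 0.000252) and at 0.85 under the *nf-ya1* label (SE 0.19, adjusted p 0.000751) and missed the fold change threshold in both. It passed in W22 without replicate 1 (1.07) or replicate 2 (1.01) of W22 at 1 h, and under the *nf-ya1* label without replicate 3 of *nf-ya1* at 1 h (1.01). The 3 libraries at R2h lay above those at 1 h under each label. With median-ratio scaling the values were 0.04 and −0.20, the second of opposite sign. The median of all genes was 0.66 and 0.76 in these comparisons.

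For this change from 1 h to R2h, the difference between labels passed for 2 of the 4 members, both with a higher value under the *nf-ya1* label, where 7.96% of all genes passed (4.06% higher and 3.89% lower). Median-ratio scaling gave 3.85% higher and 5.95% lower. The libraries at 1 h enter both the heat response and the recovery change, so a high or low library at 1 h moves them in opposite directions.

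**Figure D4:**
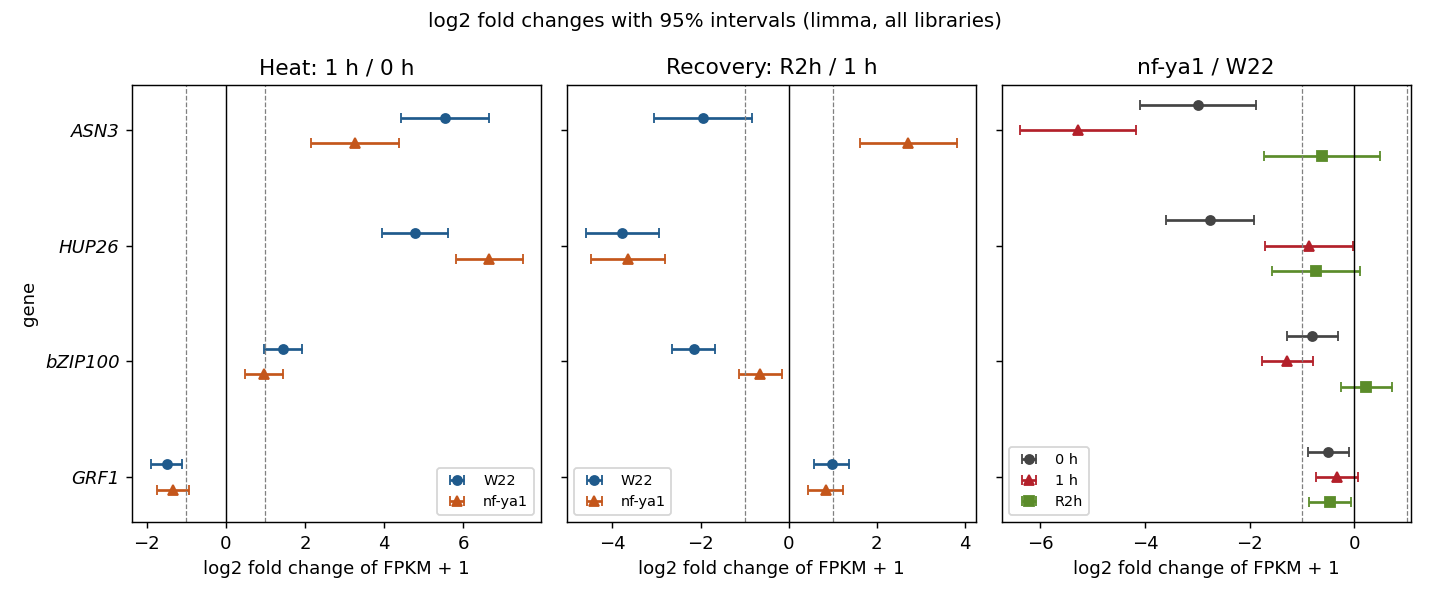
log2 fold changes of FPKM + 1 (x axis) with 95% intervals for 1 h/0 h and R2h/1 h in W22 (circles) and in the libraries labelled *nf-ya1* (triangles), and for *nf-ya1*/W22 at 0 h (circles), 1 h (triangles) and R2h (squares). Dashed lines mark a log2 fold change of 1 in each direction, and *ASN3* is the member with opposite signs in the recovery panel (−1.94 and 2.72).

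Compared with 0 h, *ASN3* remained high after recovery. At R2h it was 3.59 above its 0 h level in W22 (SE 0.52, adjusted p 0.000177) and 5.97 above it under the *nf-ya1* label (SE 0.52, adjusted p 4.07e-07), 13.1 and 138 times on means. Only 17 and 11 tested genes had larger log2 fold changes in these comparisons. In W22 *ASN3* was the only member that passed, where 5.83% of all genes did (3.96% higher and 1.87% lower). In 3 of the 4 members the R2h and 0 h libraries of a label did not overlap, *HUP26* being the exception in W22 and *bZIP100* under the *nf-ya1* label, against 50.7% and 49.6% of all genes.

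*HUP26* was also higher at R2h than at 0 h under the *nf-ya1* label, by 3.02 (SE 0.39, adjusted p 1.99e-05), so 2 of the 4 members passed there, against 18.5% of all genes (6.89% higher and 11.6% lower). In W22 its log2 fold change was 1.01 (SE 0.39, adjusted p 0.0796), and without replicate 1 of W22 at R2h it was 1.53 (adjusted p 0.00507) and passed. That library held the lowest FPKM of its group for *ASN3*, *HUP26*, *bZIP100* and also *ZmNF-YA1* (11.35). *bZIP100* was at −0.71 in W22 (adjusted p 0.0342) and at 0.32 under the *nf-ya1* label (adjusted p 0.268). *GRF1* was at −0.52 (adjusted p 0.0566) and −0.49 (adjusted p 0.0439), none of which passed.

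The next comparison sets the libraries labelled *nf-ya1* against W22 at each time. At 0 h, 2 of the 4 members were lower and none higher, where 19.9% of all genes passed (14.9% higher and 5% lower). The labels did not overlap for any of the 4, nor for 55.6% of all genes, and the members' median log2 fold change was −1.78 against 0.24 for all genes. *ASN3* was lower, at −2.99 (SE 0.52, adjusted p 0.000274), with a mean FPKM of 6.08% of W22. *HUP26* was lower, at −2.75 (SE 0.39, adjusted p 5.14e-05), with 15.4% of the W22 mean. Both genes were thus among the lower genes before any heat.

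For *bZIP100* at 0 h the log2 fold change was −0.80 (SE 0.23, adjusted p 0.00915), under the fold change threshold. It passed with median-ratio scaling (−1.03), with quantile normalization (−1.23) and without replicate 3 of *nf-ya1* at 0 h (−1.03). That library was the highest of its group for *HUP26*, *bZIP100* and *ZmNF-YA1*, and the lowest for *ASN3* and *GRF1*. *GRF1* was at −0.49 (SE 0.19, adjusted p 0.0387). Median-ratio scaling changed the background at 0 h to 10.6% higher and 6.94% lower, and quantile normalization to 9.1% higher and 8.05% lower.

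At 1 h, 2 of the 4 members were lower and none higher, where 16.4% of all genes passed (9.06% higher and 7.33% lower, or 13.3% and 6.63% with median-ratio scaling). *ASN3* was lower, at −5.28 (SE 0.52, 95% interval −6.38 to −4.17, adjusted p 1.74e-06), with 2.2% of the W22 mean. Of all tested genes, 2 had a more negative value. *bZIP100* was lower, at −1.28 (SE 0.23, adjusted p 0.000342), with 40.9% of the W22 mean.

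*HUP26* did not overlap between the labels at 1 h and had 55.0% of the W22 mean under the *nf-ya1* label. Its log2 fold change was −0.86 (SE 0.39, 95% interval −1.70 to −0.03, adjusted p 0.0846), which did not pass. *GRF1* overlapped between the labels, at −0.33 (95% interval −0.73 to 0.07, adjusted p 0.162). The labels lay apart at 1 h in 3 of the 4 members and in 55.5% of all tested genes.

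At R2h none of the 4 members passed the limma test, where 8.24% of all genes did (5.14% higher and 3.1% lower), and 1 of the 4 members had an unadjusted p under 0.05, as did 39.4% of all genes. *ASN3* was at −0.61 with a 95% interval from −1.72 to 0.49 (adjusted p 0.405) and *HUP26* at −0.74 with an interval from −1.57 to 0.10 (adjusted p 0.179). *bZIP100* was at 0.23 with an interval from −0.25 to 0.72 (adjusted p 0.48). *GRF1* was at −0.46 with an interval from −0.86 to −0.07 (adjusted p 0.0769), and its libraries did not overlap, as in 51.7% of all genes. The intervals of *ASN3* and *HUP26* still include differences of more than 1.

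The difference between the labels in the heat response was tested as an interaction. None of the 4 members passed with limma, where 17.1% of all genes did (4.24% higher and 12.8% lower), and 2 of the 4 had an unadjusted p under 0.05, as did 47.6% of all genes. For *ASN3* the difference in the rise, *nf-ya1* minus W22, was −2.28 (SE 0.73, 95% interval −3.85 to −0.71, adjusted p 0.0233). For *HUP26* it was 1.89 (SE 0.56, 95% interval 0.70 to 3.07, adjusted p 0.0147). Both missed the adjusted p of 0.01, and their signs were opposite.

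The *HUP26* interaction passed with median-ratio scaling (2.30, adjusted p 0.00457), in a fit of only the 4 groups compared (1.89, adjusted p 0.00765), and without replicate 3 of *nf-ya1* at 0 h (2.30, adjusted p 0.00318) or replicate 1 of W22 at R2h (1.89, adjusted p 0.00322). The *ASN3* interaction became −1.16 with a pseudocount of 0.01 (adjusted p 0.343), with *ASN3* at most 1.6 FPKM in unheated *nf-ya1*. For *bZIP100* the value was −0.48 (95% interval −1.17 to 0.21, adjusted p 0.257) and for *GRF1* 0.17 (95% interval −0.39 to 0.73, adjusted p 0.65). The background turned with median-ratio scaling to 7.85% higher and 5.56% lower, and with quantile normalization to 6.29% higher and 5.38% lower.

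*ZmNF-YA1* itself was at 0.84 in W22 (SE 0.20, adjusted p 0.00235), which did not pass, and rose by 1.15 under the *nf-ya1* label (SE 0.20, adjusted p 0.000103) from 0 h to 1 h. After median-ratio scaling it was 19.7, 21.0 and 24.3 in W22 at 0 h and 81.7, 60.7 and 55.8 at 1 h. Under the *nf-ya1* label it was then 10.1, 9.55 and 14.5 at 0 h and 66.3, 59.3 and 49.0 at 1 h. *ZmNF-YA1* was not tested on this scale. On FPKM as deposited, *ZmNF-YA1* fell from 1 h to R2h by 1.69 in W22 (adjusted p 3.27e-06) and by 1.67 under the *nf-ya1* label (adjusted p 2.76e-06). Its own difference between labels was −0.64 at 0 h, −0.33 at 1 h and −0.30 at R2h (adjusted p 0.0182, 0.206 and 0.297). At the same times *ASN3* was at −2.99, −5.28 and −0.61.

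In time course, *HUP26* and *bZIP100* were like *ZmNF-YA1* in having their highest mean at 1 h under both labels. *ASN3* had its highest mean at R2h under the *nf-ya1* label, where *ZmNF-YA1* was at its lowest (8.97, 12.89 and 9.38). On FPKM as deposited, *GRF1* had its lowest mean at 1 h under both labels, where *ZmNF-YA1* was highest. With median-ratio scaling the *GRF1* change from 1 h to R2h was 0.04 in W22 and −0.20 under the *nf-ya1* label. So scaled, *GRF1* was not lowest at 1 h under the *nf-ya1* label. No correlation of a member with *ZmNF-YA1* over the libraries is given, since the libraries belong to groups set by time and label.

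**Figure D5:**
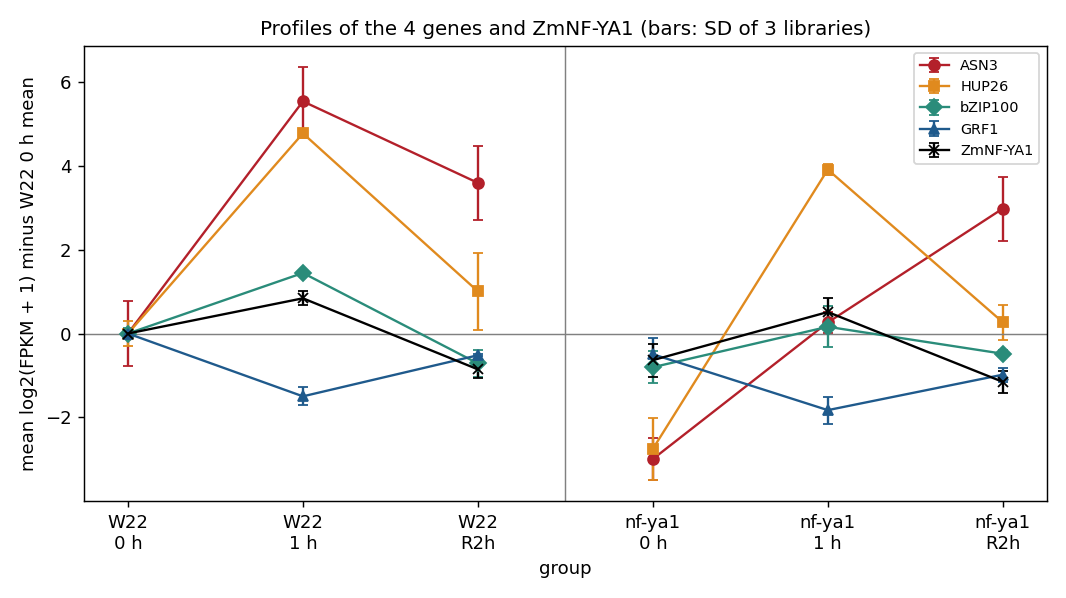
Group means of log2(FPKM + 1) minus the W22 0 h mean (y axis) for the 4 genes and *ZmNF-YA1* over the 6 groups (x axis), with bars for the SD of 3 libraries. From 0 h to 1 h in W22 *ZmNF-YA1* was at 0.84, *ASN3* at 5.54 and *GRF1* at −1.50.

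*JIH5* (a jasmonoyl-isoleucine hydrolase gene) and *NIP2c* (an aquaporin-like channel gene), the other genes of the promoter assay, were assigned to repressed targets. At 1 h *NIP2c* was at −4.09 against 0 h in W22 (adjusted p 8.88e-09) and *JIH5*, with an FPKM of at most 0.07 in heated W22, at −0.63 (adjusted p 0.0348). The fall of *GRF1* had this sign, as did the median of all genes (−0.51). Between the labels, *nf-ya1* minus W22, *NIP2c* and *JIH5* were at 1.47 and 1.21 at 0 h. At 1 h they were at 1.43 and 0.89, and at R2h at −0.52 and 0.08. *GRF1* was at −0.49 at 0 h and −0.33 at 1 h, neither passing, with the sign of the other activated targets.

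The genes nearest in profile to each member were found by the root mean square difference of log2(FPKM + 1) over the 18 libraries, after centring each gene on its mean, among 12450 tested genes whose mean FPKM reached 10 in some group. This difference is a description and depends on how far a member itself moved. *ASN3* itself had a root mean square of 2.85 around its mean, and its nearest gene, Zm00001eb195230, differed from it by 1.33. That gene went from 14.5 to 106 to 46.1 FPKM in W22 and from 1.94 to 19.0 to 42.6 under the *nf-ya1* label (means at 0 h, 1 h and R2h), so it too was highest at R2h under that label. The next were Zm00001eb237960 (1.54), annotated with a BAG domain, and Zm00001eb242800 (1.61).

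*HUP26* was nearest to Zm00001eb124990 (0.57), Zm00001eb371530 (0.62) and Zm00001eb124950 (0.67). Zm00001eb371530 and Zm00001eb124950 are annotated with the Hsp20 domain of small heat shock proteins, chaperones that hold unfolding proteins. Zm00001eb371530 went from 222 to 3458 to 288 FPKM in W22 and from 55.3 to 4017 to 224 under the *nf-ya1* label. Like *HUP26* it had the lower mean under that label at 0 h, but at 1 h its means were in the opposite order. Zm00001eb124990 and Zm00001eb124950 kept the order of *HUP26* at 1 h. Their means were 26974 and 11611 FPKM in W22, and 13983 and 9723 under the *nf-ya1* label.

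*bZIP100* was nearest to Zm00001eb393900 (0.27), Zm00001eb078600 (0.30) and Zm00001eb409040 (0.31). Zm00001eb409040 went from 123 to 469 to 93.8 FPKM in W22 and from 58.2 to 181 to 82.2 under the *nf-ya1* label. *GRF1* was nearest to Zm00001eb359510 (0.17), Zm00001eb024180 (0.18) and Zm00001eb270920 (0.22), and 2683 genes lay within 0.5 of it, against 123 for *bZIP100* and 0 for *HUP26* and *ASN3*. These counts depend on how far each member itself moved. The root mean square around its own mean was 0.65 for *GRF1*, 0.80 for *bZIP100*, 2.56 for *HUP26* and 2.85 for *ASN3*. They also rest on FPKM as deposited, so no conclusion on a shared profile is drawn.

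No other member was among the 3 nearest genes of a member. Those genes were picked as the nearest of 12450, so this is no evidence that the members are unlike. The smallest difference between members was that of *bZIP100* and *GRF1* (1.26), which moved in opposite directions but by little, and the next was that of *HUP26* and *bZIP100* (1.98). *ASN3* and *HUP26* differed by 2.19, although both rose most under heat. *ASN3* and *GRF1* differed by 3.13.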

How the data were processed

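Leaf libraries of both genotypes were sequenced on the BGISEQ-500 platform. The authors filtered the reads, aligned them to the B73 V5 reference (the plants have a W22 background) and deposited FPKM rounded to 2 decimals for 18 libraries. The aligner and counter are not given in the sources used here. Read counts per gene were not used here, so counting error is unknown and precision rests on the spread between 3 libraries per group. Fragments shared with near-identical genes or with overlapping genes could not be separated.

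Values were analysed as log2(FPKM + 1). Genes with FPKM of at least 1 in at least 3 libraries were fitted with limma 3.58.1 in R 4.3.3 (1 mean per group, intensity trend, all 18 libraries). From this fit 11 contrasts were read, with Benjamini-Hochberg adjustment over all tested genes. Each gene had 1 estimate of spread for both labels, so its SE is the same in both. Fits limited to the groups of 1 h/0 h gave *ASN3*, *HUP26*, *bZIP100* and *GRF1* an SE of 0.57, 0.16, 0.089 and 0.12 in W22. Under the *nf-ya1* label it was 0.30, 0.37, 0.32 and 0.26. The thresholds, an adjusted p of 0.01 and an absolute log2 fold change of 1, follow the study's methods. With 3 against 3 libraries the smallest exact permutation p is 0.1. The calling was tested on simulated data. No library was a copy of another: replicates shared identical values in 1.29 to 3.34% of genes. The members, lists and tests were chosen with earlier results of these data known. Named genes were the 4 members, *ZmNF-YA1*, the other 2 assayed genes and the 3 nearest genes of each member. The RefSeq table (49888 entries) holds 0 of the table's gene IDs, so family lists, leaf markers and sequences are not given. As alternatives, the pseudocount was set to 0.1 or 0.01, the filter was dropped or raised to a mean FPKM of 5, libraries were rescaled by median ratios or by quantile normalization, the fit was limited to the groups of a comparison, the replicate number was added as a block, the trend was dropped, and every library was left out in turn. Python 3.11.15 with Matplotlib 3.10.9 made the figures.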

Additional observations from a re-analysis of the deposited data

Results flagged for a closer look

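The change from 1 h to R2h differed between the labels for *ASN3* and *bZIP100* by a test of the difference itself. The difference, *nf-ya1* minus W22, was 4.66 for *ASN3* (limma adjusted p 0.000534) and 1.52 for *bZIP100* (limma adjusted p 0.00397). All 3 *ASN3* libraries at R2h lay below those at 1 h in W22 and all 3 lay above them under the *nf-ya1* label. For *bZIP100* the libraries at R2h lay below those at 1 h under both labels. *ZmNF-YA1*, the targeted gene, was higher at 1 h than at R2h under both labels, with a difference of 0.03 (limma adjusted p 0.954). Its part in the *ASN3* and *bZIP100* values was not tested.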

How the results depend on the processing

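The 4 members were read in 11 comparisons, which gave 44 fold changes. The same side of the threshold and the same direction were kept by all 44 without a filter, with a mean FPKM of at least 5, without a trend and with the replicate block. They were kept by 43 with a pseudocount of 0.1, by 42 with 0.01, by 42 in a fit of only the groups compared, by 39 with quantile normalization and by 37 with median-ratio scaling. The members passing the heat interaction became 1 (*HUP26*, against 0) with median-ratio scaling and in a fit of only the groups compared. With 1 library left out, 0 to 1 members passed the heat interaction, 1 to 2 the recovery interaction and 1 to 2 W22 R2h/0 h. Directions turned for *GRF1* in *nf-ya1* R2h/1 h with median-ratio scaling (−0.20) and for *bZIP100* in the heat interaction with quantile normalization (0.13). Among fits that left out 1 library, *GRF1* turned in the heat interaction (−0.0030 to 0.39 over all libraries) and in the recovery interaction (−0.28 to 0.034), and *HUP26* in the recovery interaction (−0.40 to 0.42). None of these values passed the test, and the cause was not tested. With a pseudocount of 0.01, quantile normalization or only the groups compared, the *ASN3* fall in W22 R2h/1 h did not pass (−1.95, −1.80 and −1.94, adjusted p 0.0132, 0.0119 and 0.0282).

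The replicate numbers did not pair the libraries. Deviations of same-numbered libraries correlated at −0.17 to 0.20 over 45 pairs, 2 of them above 0.1, and 13 of the 45 correlated best with their own number. With the replicate block the *ASN3* recovery interaction was 4.66 (adjusted p 0.00159) and that of *bZIP100* 1.52 (adjusted p 0.00272).

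Over all genes, the number passing moved by more than 1.5 times in several comparisons, and the most extreme values follow. For 1 h/0 h it was 5981 in W22 and 3707 with quantile normalization, and 11584 under the *nf-ya1* label and 5987 with median-ratio scaling. For R2h/1 h it was 8216 in W22 and 4331 with quantile normalization, and 10124 under the *nf-ya1* label and 5954 with median-ratio scaling. For *nf-ya1* R2h/0 h it was 4165 and 2362 in a fit of only the groups compared. For *nf-ya1*/W22 it was 4494 at 0 h and 1860 at R2h, and 2273 and 910 for genes with a mean FPKM over the stricter filter, and 3701 at 1 h and 5904 with a pseudocount of 0.01. For the heat interaction it was 3850 and 2315 for genes with a mean FPKM over the stricter filter. The stricter filter, a mean FPKM of 5, tests fewer genes by construction.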
